A study of Mus musculus with 7 samples.

Results

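The olfactory receptor cluster on mouse chromosome 2, taken here as chr2:85100000-90100000 in mm9 and stated to be silent in liver, was examined for H3K27me3 in 7 livers. H3K27me3 is trimethylation of lysine 27 of histone H3. The members of the cluster were the islands (stretches called enriched in sequenced chromatin) of the 7 deposited lists that overlapped these 5 Mb. There were 10 such islands, of 122262 in all lists and 9769 on chromosome 2. The mice were wild-type CD-1 males, an outbred stock, 7 weeks old. The 3 vehicle mice received 1% DMSO in corn oil and the 4 others 3 mg/kg TCPOBOP, a ligand of the mouse nuclear receptor CAR. Livers were taken 27 h after the injection, and chromatin of each was precipitated separately with 1 antibody, so each list stands for 1 animal. Whole liver holds several cell types, and a mark carried by few cells cannot be told apart from a weak mark in many. Tissue identity was not checked against marker genes, because no annotation of mm9 was used here.

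Olfactory receptors are odorant-binding G protein-coupled receptors. Their genes lie in clusters, and an olfactory neuron expresses 1 allele of 1 of them while the rest stay silent. H3K27me3 is laid down by Polycomb repressive complex 2, which is known for acting at CG-rich starts of developmental genes. In olfactory neurons, silent receptor genes are known to carry other repressive marks, on lysine 9 of histone H3 and lysine 20 of histone H4.

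In the RefSeq gene table of GRCm38.p6, a later build whose positions were not transferred to mm9, the largest run of receptor genes on this chromosome held 222 protein-coding genes, from Olfr987 to Olfr1274. That was 20% of the 1110 protein-coding receptor genes in the table. It also held 71 receptor pseudogenes and 3 other coding genes, Fads2b, Pramel7 and Pramel6. The nearest coding neighbours were Lrrc55 and Aplnr, the receptor for apelin, on the lower side and Ptprj, a receptor tyrosine phosphatase, on the upper. The run was 5.07 Mb long in that build.

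Windows at the annotated starts of these genes held few CG dinucleotides. RefSeq windows of 300 bases, from 250 before to 50 after a gene's start, were found for 186 of the 222 receptor genes. The 187 windows had a median of 1 CG dinucleotide (highest 7), against a median of 7 (highest 67) in all 32851 windows of the table. Their median content of the bases G and C was 32%, against 52.7% in all windows. The CG counts were not corrected for this content. CG, which reads the same on both strands, occurred at least once in 64.2% of the receptor windows and in 94.6% of all windows. None of the 187 windows held 10 or more, against 43.5% of all windows. Receptor genes elsewhere in the genome also had a median of 1, over 761 windows. For 168 of the 222 genes (75.7%) the model's length was a multiple of 3, as in models without untranslated ends, so a window may lie at the coding start. In the 48 windows of the other models the median was 1 as well, but these may lie at a coding start too. In the window of Olfr994 below, which is from such a model, the 50 bases after the start begin with atg. The count therefore does not settle how poor in CG the starts of transcription are. The same count for the 30 coding genes on each side was void, because 78.3% of them, under the 80% required, had a window. The 4 windows below are examples of gene starts, with every CG in capitals, and carry no comparison of the run with its neighbours. Olfr994 and Olfr1270 are the outermost receptor genes of the run with a window among the models whose length is not a multiple of 3, and Lrrc55 and Ptprj are the nearest neighbours with one. All are from GRCm38.p6, on the minus strand, written 5′ to 3′.
Olfr994: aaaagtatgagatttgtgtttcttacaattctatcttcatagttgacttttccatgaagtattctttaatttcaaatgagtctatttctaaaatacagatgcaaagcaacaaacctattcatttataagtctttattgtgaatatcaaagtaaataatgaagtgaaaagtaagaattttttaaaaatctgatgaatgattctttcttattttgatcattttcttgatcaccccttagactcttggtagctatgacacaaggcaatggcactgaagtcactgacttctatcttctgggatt
Olfr1270: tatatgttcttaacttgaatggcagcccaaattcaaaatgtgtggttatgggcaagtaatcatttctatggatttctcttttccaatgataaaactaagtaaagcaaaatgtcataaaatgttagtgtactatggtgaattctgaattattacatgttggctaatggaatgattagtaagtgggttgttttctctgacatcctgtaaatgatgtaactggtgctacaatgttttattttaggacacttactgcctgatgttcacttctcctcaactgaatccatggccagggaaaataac
Lrrc55: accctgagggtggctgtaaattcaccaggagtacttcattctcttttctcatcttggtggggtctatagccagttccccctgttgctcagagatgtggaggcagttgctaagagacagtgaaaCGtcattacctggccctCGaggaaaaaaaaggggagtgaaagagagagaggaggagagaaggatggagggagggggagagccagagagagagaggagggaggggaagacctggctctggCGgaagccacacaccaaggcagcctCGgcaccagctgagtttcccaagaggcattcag
Ptprj: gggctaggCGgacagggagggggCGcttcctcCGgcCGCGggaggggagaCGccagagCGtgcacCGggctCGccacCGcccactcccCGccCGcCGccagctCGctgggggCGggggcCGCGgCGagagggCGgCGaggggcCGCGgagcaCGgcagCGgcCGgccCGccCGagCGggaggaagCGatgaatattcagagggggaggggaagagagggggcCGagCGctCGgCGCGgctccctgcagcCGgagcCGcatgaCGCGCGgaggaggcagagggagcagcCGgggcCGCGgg
The windows of Olfr994 and Olfr1270 held 0 CG each, that of Lrrc55 held 4, and that of Ptprj, the farther upstream of its 2 windows, held 42, while its other window held 6. The count of Lrrc55 lies within the range of the receptor windows.

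**Figure D1:**
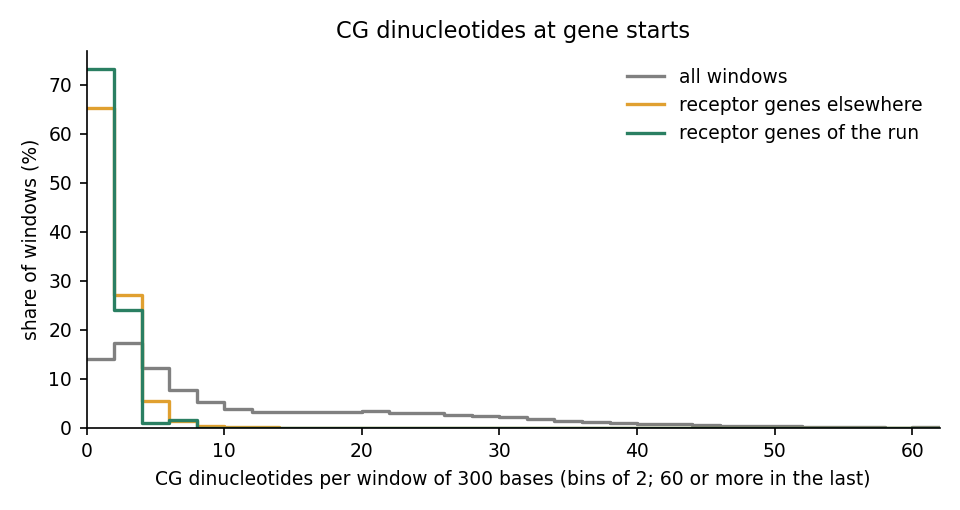
Number of CG dinucleotides in RefSeq windows of 300 bases around gene starts (x axis, bins of 2) against the share of windows (y axis, percent), for receptor genes of the run, receptor genes elsewhere and all windows. Of the run's windows, 73.3% held 0 or 1 CG, against 14.1% of all windows.

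H3K27me3 islands were nearly absent from the cluster in every liver. Vehicle replicates 1 to 3 had 2, 1 and 1 islands there, and TCPOBOP replicates 1 to 4 had 2, 0, 2 and 2. These islands spanned 57.6, 23.2 and 20.8 kb of the 5 Mb with vehicle and 36.8, 0, 55.6 and 37.2 kb with TCPOBOP. The values of the 2 groups overlapped, and the TCPOBOP liver at 0 was the lowest of all. As a share of the cluster this was 0.661 ± 0.407% (SD, n = 7). The number of reads behind each list is not given in the files. A place without an island was therefore not called, which does not exclude a weaker mark there. Whether reads can be placed uniquely among the related receptor genes was not tested. A place without the mark thus cannot be told apart from one where few reads were placed.

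**Figure D2:**
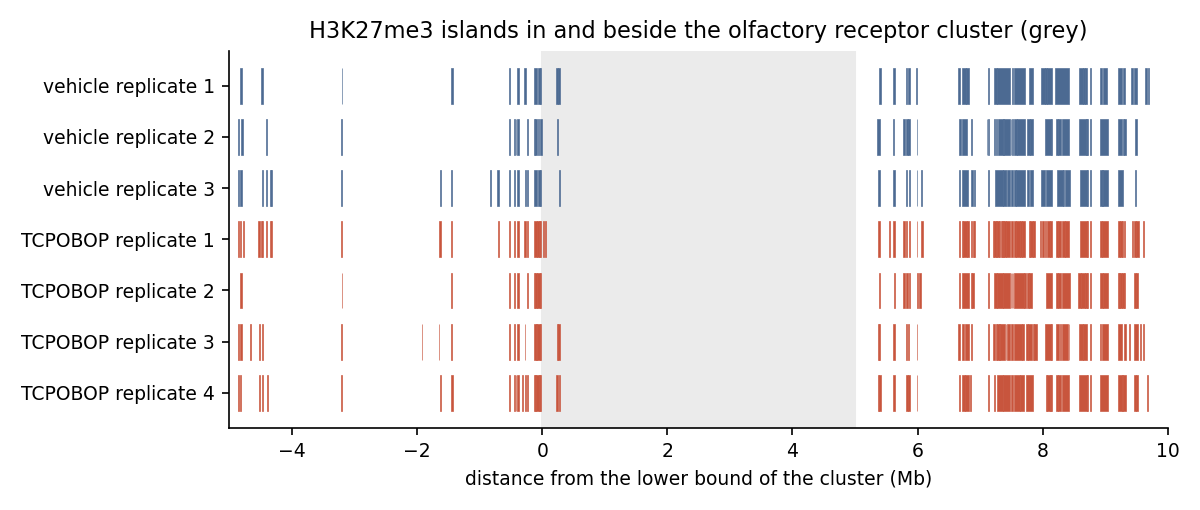
Islands of each liver (rows; vehicle blue, TCPOBOP red) by distance from the lower bound of the cluster in Mb (x axis), with the cluster in grey. Each row has at most 2 islands in the grey area, all within its first 500 kb.

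All 10 islands lay at the lower edge, and the rest of the cluster had none. Of the 10 bins of 500 kb in the cluster, 9 had no island in any liver, and the first bin had an island in 6 livers. From 85387201 to 90451600 no island was present in any of the 7 lists, a stretch of 5.06 Mb that holds 94.3% of the cluster and runs 352 kb past its upper bound. Which genes lie under this stretch was not determined, because the gene run of the later build was not placed in mm9. Between the islands at the edge, the other stretches of the cluster empty in all livers were from 85160801 to 85324000 (163 kb), from 85100001 to 85113600 (13.6 kb) and a shorter one.

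In single livers the empty stretch was between 5.08 and 5.41 Mb long. With vehicle it measured 5.10, 5.10 and 5.08 Mb, and with TCPOBOP 5.31, 5.41, 5.08 and 5.08 Mb. The first 2 TCPOBOP livers had longer stretches because their last island before it ended at 85160800 and 85073200, against 85354000 to 85387200 in the other 5. The upper end varied less: the first island after the stretch began between 90451601 and 90484001 in all 7 livers. Measured inside the bounds alone, the longest gap was 4.72 ± 0.0186 Mb with vehicle (SD, n = 3) and 4.84 ± 0.149 Mb with TCPOBOP (SD, n = 4).

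No gap between islands on chromosome 2 was longer in any liver. The next longest on the chromosome was 3.59 to 3.87 Mb, and the median gap of all autosomes was 17.6 to 25.2 kb. Among the 14138 to 20512 gaps on autosomes the stretch ranked 3 to 10 in single lists. It ranked 2 of 17322 when only places empty in all 7 lists were counted.

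Outside the bounds the marked length was high at once on the lower side and only farther out on the upper side. The 500 kb just below the cluster had 35.5 ± 4.69% under islands (SD, n = 7), the first 500 kb inside it 6.61 ± 4.07%, and the following 9 bins 0%. The next bins, above the cluster, had 6.75 ± 1.73%, 17.4 ± 3.23% and 2.10 ± 2.78%, the last with islands in 3 of 7 livers. Farther out the cover reached 65.0 ± 4.89% in the bin from 8 to 8.5 Mb above the lower bound. In the bin just below the cluster every liver had at least 29.8%, more than the highest value of the first bin inside, 11.5%.

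**Figure D3:**
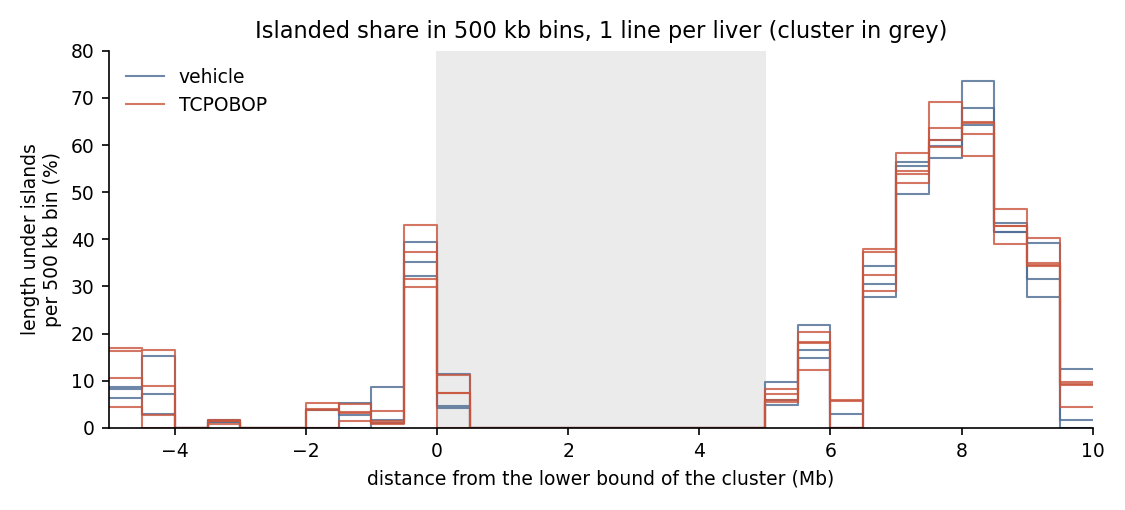
Share of each 500 kb bin under islands (y axis, percent) by distance from the lower bound of the cluster (x axis, Mb), with 1 line per liver (vehicle blue, TCPOBOP red) and the cluster in grey. All 7 lines lie at 0 from 0.5 to 5 Mb and rise to between 57.7 and 73.6% in the bin that starts at 8 Mb.

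The cluster had less of its length under islands than the 5 Mb on either side and than the rest of chromosome 2. Over the 7 livers the 5 Mb below had 6.27 ± 1.64% under islands, the 5 Mb above 32.4 ± 1.23% and the rest of the chromosome 26.5 ± 0.883% (SD, n = 7). The whole of chromosome 2, cluster included, had 25.8 ± 0.868%. Within a liver the cluster was lower by 5.61 percentage points than the 5 Mb below (95% interval of the cluster's difference -7.14 to -4.19), lower in 7 of 7 livers. Against the 5 Mb above the difference was -31.7 points (-33.1 to -30.5) and against the rest of the chromosome -25.8 points (-26.3 to -25.2), again in 7 of 7 livers. Each had p = 0.0156 in a two-sided exact sign-flip permutation test, the smallest that 7 pairs allow, and an adjusted p of 0.0195 over 5 such comparisons. The livers share 1 order of genes along the chromosome, so these tests speak of livers and not of other places in the genome. The cluster and the tests were also chosen with earlier results of these data known.

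The lower side itself was sparse away from the cluster. It had 313 ± 82.0 kb under islands (SD, n = 7), and outside the 500 kb next to the cluster its bins averaged at most 10.3%. With the bounds pushed out by 500 kb, so that this bin counted as cluster, the widened cluster had 4.07% and the 5 Mb below it 3.45% under islands, a difference of 0.619 points the other way (exact sign-flip p = 0.266). With the bounds drawn in by 500 kb, the cluster had 0 islands in 7 livers and the difference from the lower side was -6.27 points.

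**Figure D4:**
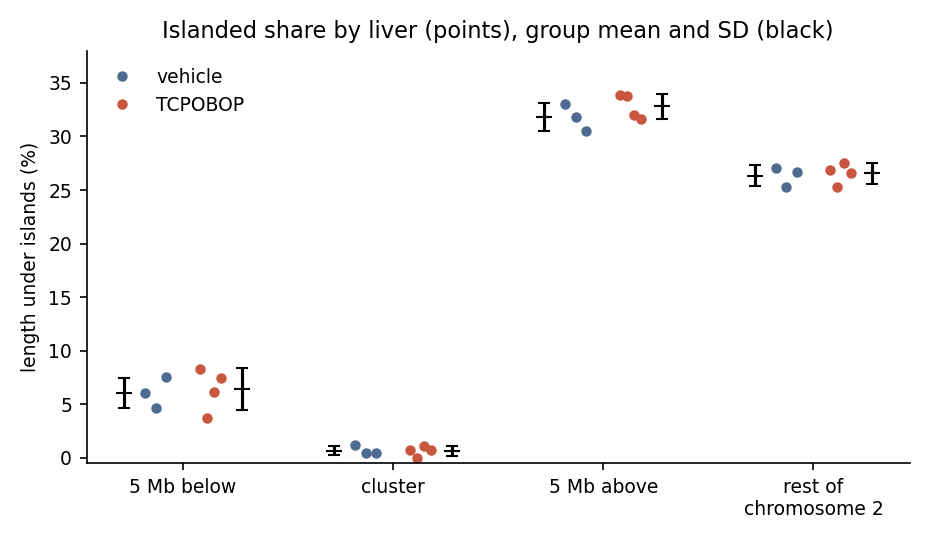
Share of length under islands (y axis, percent) in the 5 Mb below, the cluster, the 5 Mb above and the rest of chromosome 2, with 1 point per liver and the mean and SD of each group in black. Points of the cluster lie between 0 and 1.15%, those of the 5 Mb below between 3.74 and 8.34%.

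Counts of islands gave the same order. The 5 Mb below held 10, 13 and 19 islands with vehicle and 22, 11, 17 and 20 with TCPOBOP, and the 5 Mb above 30, 36 and 33 and then 56, 40, 42 and 35. The cluster held 1.43 ± 0.787 islands and its sides 27.4 ± 5.88 on average (SD, n = 7), a difference of -26.0 (95% interval -31.3 to -21.5, exact sign-flip p = 0.0156, adjusted p = 0.0195). Median gaps were 52.6 to 120 kb below and 21.6 to 51.2 kb above with vehicle, and 26.8 to 108 kb and 8.40 to 27.4 kb with TCPOBOP. Inside the cluster, with so few islands, the median gap followed from their number and place. With 2 islands it was 13.6 kb in TCPOBOP replicate 1 and 224 to 229 kb in the 3 other livers, with 1 island 2488 and 2490 kb, and with none the full 5000 kb.

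As a description of the place in the genome, the autosomes were cut into 471 other tiles of 5 Mb. The tiles were cut at fixed places along each chromosome, and those overlapping the cluster were left out. The bounds of the cluster were instead set around a gene cluster. Its place among the tiles is thus not that of a window set without regard to its content. In single livers 3 to 9 of these tiles had as little length under islands as the cluster or less, and by the mean of the 7 livers 4 did. On chromosome 2, 0 of 33 tiles did; the lowest had 5.52% by the mean of the livers. The median tile had 22.2%.

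The few islands in the cluster ranked low by score. The score is the value that the island caller gave each island, and it was ranked only within the list of its own liver, with the highest at percentile 100. Of the 10 islands 9 were at or under percentile 50 and 5 at or under percentile 25, and 0 were above percentile 90. Divided by the number of 400 bp windows, the score of all 10 was under the median of its list, between percentiles 2.73 and 44.4. The score per window was not compared with the sides. Their widths ran from 12 to 39.2 kb, with a median of 22.0 kb.

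Each island can be placed. Vehicle replicate 1 had islands from 85324001 to 85354000, ranked 9710 of 14167, and from 85359201 to 85386800, ranked 9046. The single island of vehicle replicate 2, from 85330801 to 85354000, ranked 14196 of 16301. That of vehicle replicate 3, from 85364801 to 85385600, ranked 11122 of 17852. None of these 4 was in the upper part of its list by score. TCPOBOP replicate 1 had its 2 islands nearer the bound, from 85113601 to 85132400 and from 85142801 to 85160800, ranked 17543 and 20124 of 20550. In TCPOBOP replicate 3 an island from 85328801 to 85345200 ranked 17344 of 18512, and the widest of all, from 85348001 to 85387200, ranked 6220. TCPOBOP replicate 4 had islands from 85324001 to 85349200, ranked 11887 of 18399, and from 85370001 to 85382000, ranked 17354. The island of TCPOBOP replicate 3 at rank 6220 was the only 1 of the 10 above the median of its list.

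The cluster's islands were lower in rank than those of both sides pooled, but not detectably lower than those of the lower side alone. In the 6 livers with an island, the median score percentile in the cluster was 33.8, 12.9 and 37.7 with vehicle and 8.36, 36.4 and 20.5 for TCPOBOP replicates 1, 3 and 4. Islands of both sides together had medians of 55.0 to 66.9. The difference averaged -34.1 (95% interval -54.0 to -17.3), lower in 6 of 6 livers, with an exact sign-flip permutation p of 0.0312, the smallest possible, and the same after adjustment. Without any 1 of these 6 livers p was 0.0625, the smallest that 5 allow, and the difference between -37.4 and -30.1. With the lowest 25% of scores left out of every list it was -27.7 (exact permutation p = 0.125, 4 livers left) and with lists of equal total length -31.2 (p = 0.0625, exact). The upper side stood higher than the lower, with medians of 66.6 to 74.6 against 22.8 to 57.8. In a comparison with the lower side alone, added after the data were seen, the mean difference was -13.2 and the cluster was lower in 5 of 6 livers (exact sign-flip permutation p = 0.156). In TCPOBOP replicate 3 it was higher, 36.4 against 31.8, and in vehicle replicate 3 and TCPOBOP replicate 4 the values were close, 37.7 against 38.2 and 20.5 against 22.8.

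**Figure D5:**
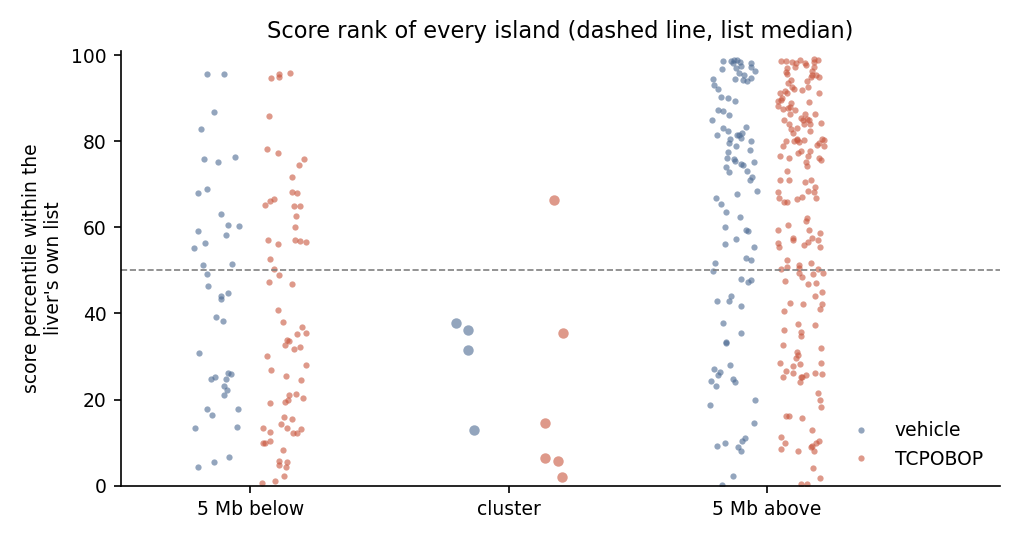
Score percentile of every island within the list of its own liver (y axis) in the 5 Mb below, the cluster and the 5 Mb above (vehicle blue, TCPOBOP red), with larger points for the cluster and a dashed line at percentile 50. In the cluster 9 of 10 points lie under the line.

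No difference between TCPOBOP and vehicle livers was detected in the cluster. The islanded share was 0.677 ± 0.412% in the 3 vehicle livers (mean and SD) and 0.648 ± 0.466% in the 4 TCPOBOP livers. The change by -0.0293 points lay well inside the spread of single livers (exact permutation p = 0.943, 95% interval -1.54 to 1.05 points). Without vehicle replicate 1 it turned to 0.208 and without TCPOBOP replicate 2 to 0.187. The number of islands was 1.33 ± 0.577 and 1.5 ± 1, a difference of 0.167 (95% interval -3.33 to 1.33, exact permutation p = 1). The 6 comparisons of the groups in the cluster all had an adjusted p of 1. The intervals for cover and for islands reach below what a share or a count can fall to, because the test shifts every liver equally. For 3 livers against 4 the smallest p is 0.0286.

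Gaps and ranks did not separate the groups either. The median gap was 1734 ± 1308 kb with vehicle and 1367 ± 2424 kb with TCPOBOP (exact permutation p = 0.971, 95% interval of the difference -3524 to 8111 kb). No gap in the cluster can exceed 5000 kb, so this interval includes differences that cannot occur. The median score percentile was 28.1 ± 13.3 with vehicle (SD, n = 3) and 21.8 ± 14.04 in the 3 TCPOBOP livers with an island, a difference of -6.39 (exact permutation p = 0.600, where 0.100 is the smallest for 3 against 3). Without TCPOBOP replicate 1 that difference was 0.306. With the bounds pushed out by 500 kb it was -12.5 with an unadjusted exact permutation p of 0.0286, over 72 islands, of which 10 lay in the cluster as first bounded.

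No change with treatment was detected in the contrast of the cluster with its sides. The cluster's cover less the mean of both sides was -18.3 ± 0.417 points with vehicle and -19.0 ± 0.997 points with TCPOBOP. The difference of -0.714 points had an exact permutation p of 0.314 (95% interval -3.96 to 1.58 points). Cover in the 5 Mb below was 6.07 ± 1.42% and 6.42 ± 1.99%, and in the 5 Mb above 31.8 ± 1.30% and 32.8 ± 1.15%, for vehicle (n = 3) and TCPOBOP (n = 4).

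TCPOBOP replicate 2 was the liver with no island in the cluster. It also had the least length under islands in the 5 Mb below, 3.74%, while in the 5 Mb above it had 33.8%, the second highest value. Its list spanned 537 Mb in all, as did that of vehicle replicate 2, against 583 to 605 Mb in the other 5. Vehicle replicate 2 had 1 island of 23.2 kb in the cluster. The part of list size in the missing islands was not tested.

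No place in the cluster was under islands in more than 4 of the 7 livers. Islands of all livers together spanned 100 kb of it, of which 0 kb was common to more than 4 livers, 27.6 kb to 4 and 42.4 kb was found in 1 liver. In the 5 Mb below 84.4 kb was under islands in all 7 livers, and in the 5 Mb above 987 kb. The Jaccard index, base pairs shared by 2 lists divided by those in either, averaged 0.195 over the 21 pairs in the cluster. It is 0 by construction for the 6 pairs with TCPOBOP replicate 2, which had no island there, and the other 15 pairs averaged 0.273. Over 21 pairs it averaged 0.451 below, 0.728 above and 0.626 over chromosome 2. Overlap by chance is higher where more length is under islands, and these parts differ in cover. The index that chance would give in each part was not computed, so these means do not rank the parts by sharing. In the cluster 12 pairs shared nothing: all those with TCPOBOP replicates 1 or 2, and vehicle replicates 2 and 3. Pairs of livers given the same treatment had a mean of 0.137 and pairs given different treatments 0.238 (one-sided exact permutation p = 1 for more sharing within groups). Over the 6 livers with an island these means were 0.205 and 0.318 (one-sided exact permutation p = 1).

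The islands of the cluster merged into 3 regions over the 7 livers. Those from 85113601 to 85132400 and from 85142801 to 85160800 came from TCPOBOP replicate 1 alone and were not tested. The region from 85324001 to 85387200 had islands in 3 of 3 vehicle and 2 of 4 TCPOBOP livers, over 57.6, 23.2 and 20.8 kb and over 0, 0, 55.6 and 37.2 kb of its 63.2 kb. Groups overlapped, since TCPOBOP replicates 3 and 4 exceeded vehicle replicates 2 and 3. Its cover averaged 53.6% (SD 32.6, n = 3) in vehicle livers and 36.7% (SD 44.0, n = 4) in TCPOBOP livers. The difference of -16.9 points (SE 29.3) had a limma adjusted p of 1. So 0 of 1 cluster region tested was called, and 0% of the 13988 regions tested in the genome were called, with 542 at an unadjusted p under 0.05, 0 of them in the cluster. With limma's plain variances 13 regions of the genome were called, and with regions of a single liver kept 1 was, 0 of them in the cluster.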

How the data were processed

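Chromatin of 7 livers was immunoprecipitated for H3K27me3 and sequenced. Bowtie2 2.3.2, SICER 1.1 and build mm9 are named in the submitters' processing notes. The authors deposited, per liver and without pooling, a list of islands with a score each; the score grows with island width and depth. Settings in the names of the deposited lists were 400 bp for the window, 2400 bp for the gap and 100 for the E-value. Input control, filters and duplicate handling are not given in the sources used here, nor is the depth, so no counting error could be given.

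Islands overlapping the cluster by any length were counted, and their length was clipped at its bounds. Livers served as replicates, and mm9 chromosome lengths were entered by hand. Groups were compared with exact permutation tests over 35 splits, and the cluster with its surroundings with exact sign flips over 7 livers. Benjamini-Hochberg adjustment was made within each of these families, and intervals came from inverting the tests. They assume an equal shift in every liver and take no account of the limits of a measure. Merged regions with an island in at least 2 livers were compared genome-wide in R 4.3.3 by limma 3.58.1 with trended, robust variances and a threshold of 0.05. Python 3.11.15 and NumPy 2.4.6 did the rest. Scripts were tested on simulated data. Regions to be named were those with the most islanded length, the largest rise or fall, islands in all 7 livers, or islands in only 1 group. The cluster, lists and tests were chosen with earlier results of these data known. Alternatives were stricter or equal-length lists, shifted bounds, other overlap and gap rules, leaving out livers and a replicate block.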

Additional observations from a re-analysis of the deposited data

Results flagged for a closer look

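Among 10 measures of the cluster and its surroundings in the 4 TCPOBOP livers, 2 had 1 liver far from the other 3. In both it was TCPOBOP replicate 2. For normally distributed values, chance puts about 1 in 20 there. That rate does not hold for counts of islands, where 1 liver apart from 3 equal ones always passes. TCPOBOP replicate 2 had 0 islands in the cluster against 2 in each of the others. Its median gap in the cluster was therefore the full 5000 kb against 13.6 to 229 kb. Both measures follow from the same missing islands and are not separate observations. Vehicle livers, 3 in number, were too few for this rule.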

How the results depend on the processing

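The cluster had less cover than the 5 Mb above, than the rest of chromosome 2 and fewer islands than its sides under every alternative run (leaving out each liver, stricter and equal-length lists, both shifts of the bounds, and, where they apply, the overlap rule and the first 3 Mb), each with p under 0.05. Against the 5 Mb below, the same held except with the bounds pushed out, where the difference turned to 0.619 points. With the bounds drawn in, 0 islands were left in the cluster. That alternative could only come out lower wherever the compared part had islands, so it adds no support. The difference in score percentile from the sides no longer passed with the lowest 25% of scores left out (-27.7), with lists of equal total length (-31.2) or without any 1 of the 6 livers with an island (-37.4 to -30.1), where too few such livers were left to pass. It held without TCPOBOP replicate 2, which had none. Against the lower side alone, an alternative added after seeing the data, it was -13.2 and did not pass.

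None of the TCPOBOP against vehicle comparisons passed as first run, and 4 of 6 changed direction under some alternative. The contrast with the sides (-1.04 to -0.251 points without 1 liver) and the Jaccard difference (-0.154 to -0.0221) kept their sign wherever they had a value. With the lowest 25% of scores left out, the difference in cover was -0.201 points, that in islands turned to -0.5, in median gap to 1171 kb and in score percentile to 15.1. With equal total length these were -0.355 points, -0.833, 2008 kb and 22.8. With gaps at a bound left out the median gap differed by 6.13 kb. Without 1 liver the difference in cover ran from -0.184 to 0.208 points, in islands from 0 to 0.667, in median gap from -1579 to 83.6 kb and in score percentile from -14.0 to 0.306. With the bounds pushed out the score percentile differed by -12.5, with an exact p of 0.0286 that was not adjusted over the 6 comparisons; the cause was not tested. With the bounds drawn in no island was left, so no percentile or Jaccard index could be had. With limma no cluster region passed under any alternative.

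The labels do not say that replicate numbers pair the livers. Deviations of same-numbered livers correlated at 0.0269, 0.278 and 0.0693, and those of different-numbered livers at -0.174 to 0.106. The highest value, 0.278, was that of the 2 livers numbered 2, so these values do not exclude a pairing. These 2 livers also had the shortest lists, with 537 Mb under islands each. The part of list size in that correlation was not tested. With a replicate block over 3 pairs (smallest exact p 0.25, or 0.5 where 2 pairs had values) the difference was -0.0613 points in cover, 0 in islands, 13.5 kb in median gap, -13.4 in score percentile and -0.776 points against the sides. limma with the block called 0 cluster regions and 0 of 13988 in the genome, as without it. No block could be set for the Jaccard index. Read numbers are not in the files, so what depth limits could not be computed.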
